A study of Homo sapiens with 3 samples.

Results

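The thiol redox genes examined here code for the enzymes that make, use and recycle glutathione, for the peroxiredoxins, for thioredoxin with its reductases and related proteins, and for the quinone reductases NQO1 and NQO2. They were chosen by name, as gene rows on the main chromosomes whose symbol belongs to these families and holds no hyphen. The rule found 62 rows of 39320 on the main chromosomes and of 43389 in all, and 58 of the 62 carry a symbol of a RefSeq protein-coding gene. The other 4 are GSTM2P1, GSTA7P, GSTT2 and TXNRD3NB. Polyadenylated RNA was sequenced in 3 libraries, replicates 1 to 3 of a single group, which carry the label HepG2 (a cell line established from a human liver tumour) and the genotype label WT. The labels name no treatment. The labels do not say whether they came from separate cultures. Every SD here thus measures only the spread between these libraries, and every p-value concerns these libraries only. Levels are given as TPM, a share of all transcripts that is corrected for gene length. Comparisons between genes rest on that correction. Orders of genes given here are by TPM, and some of them reverse by coverage, the mean read depth over the gene.

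Glutathione is a small peptide whose cysteine thiol gives electrons to peroxides and is joined to reactive compounds. Glutamate-cysteine ligase (GCLC with its modifier GCLM) and glutathione synthetase (GSS) make it, glutathione peroxidases and transferases use it, and glutathione reductase (GSR) restores it with NADPH. In a parallel system, thioredoxin (TXN) passes electrons from its reductase to the peroxiredoxins. In liver, these enzymes remove peroxides and conjugate drugs and other foreign compounds, and hepatocytes are known for abundant alpha-class transferases and little of the pi-class enzyme GSTP1. Many of the genes are known targets of NRF2 (gene NFE2L2), a factor that is held in check by KEAP1 and binds antioxidant response elements with small MAF proteins.

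Markers of the labelled cell type were checked first. All 13 genes of a hepatocyte list were below 1 TPM in every library, 9 of them, including ALB, APOA1 and APOB, were listed at 0 in all 3, and the summed level of the list lay between 0.334 and 0.620 TPM. The epithelial keratins KRT8 and KRT18 had 2609.6 ± 28.6 and 2017 ± 102 TPM (SD, n = 3), while EPCAM and KRT19 were below 1 TPM and CDH1 was at 1.02 ± 0.0382 TPM. The leukocyte list summed to between 1.34 and 1.75 TPM, with 5 of 5 genes below 1 TPM and PTPRC and CD3E at 0. The fibroblast list summed to between 6.41 and 7.5 TPM, nearly all of it COL1A1 with 6.93 ± 0.564 TPM (SD, n = 3), and PDGFRA was at 0. The hepatocyte genes at or near 0 go against the label of a liver cell line, so the libraries are called by their label only, and which cells they came from was not tested. TRNC, a mitochondrial transfer RNA, took 16.9% to 17.2% of all TPM, which lowers every other TPM by about the same factor. The number of reads is unknown.

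The levels ran from GSTP1 and PRDX1 near the top of all genes to alpha-class transferases listed at 0. The stretches before the start sites of 5 transferase genes are shown: GSTP1 is the highest transferase, GSTA1 and GSTM5 are at or near 0, and GSTM1 and GSTM3 lie between them in the mu-class cluster of GSTM5. They were taken from RefSeq on GRCh38.p14, where promoter windows were found for 51 of the 62 genes. Each stretch runs up to the RefSeq start site, or to the first base that GENCODE v44 places in an exon of the gene, and is written 5′ to 3′ on the strand of the gene with each CG dinucleotide in capitals. GSTP1 lies at chr11:67583562-67583741 (plus strand), GSTA1 at chr6:52803861-52804066 (minus strand), GSTM1 at chr1:109687567-109687813 (plus strand), GSTM5 at chr1:109712001-109712250 (plus strand) and GSTM3 at chr1:109741039-109741288 (minus strand).
GSTP1: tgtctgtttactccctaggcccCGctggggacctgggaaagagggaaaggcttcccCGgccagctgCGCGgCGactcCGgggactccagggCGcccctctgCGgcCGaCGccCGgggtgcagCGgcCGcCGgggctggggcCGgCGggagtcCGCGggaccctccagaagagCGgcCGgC
GSTA1: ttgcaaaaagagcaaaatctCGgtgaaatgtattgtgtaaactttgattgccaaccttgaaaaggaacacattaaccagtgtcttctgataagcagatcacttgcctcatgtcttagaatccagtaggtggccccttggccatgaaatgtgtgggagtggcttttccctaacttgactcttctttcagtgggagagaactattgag
GSTM1: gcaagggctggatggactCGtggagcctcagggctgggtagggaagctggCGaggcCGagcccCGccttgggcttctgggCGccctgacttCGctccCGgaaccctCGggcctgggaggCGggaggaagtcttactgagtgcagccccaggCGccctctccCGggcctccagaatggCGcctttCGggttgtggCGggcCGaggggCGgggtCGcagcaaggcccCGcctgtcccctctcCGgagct
GSTM5: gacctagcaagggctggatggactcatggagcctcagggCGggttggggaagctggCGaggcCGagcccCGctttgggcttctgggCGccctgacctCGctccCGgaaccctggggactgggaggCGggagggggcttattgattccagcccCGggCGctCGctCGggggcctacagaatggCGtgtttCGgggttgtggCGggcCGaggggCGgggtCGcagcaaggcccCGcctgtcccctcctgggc
GSTM3: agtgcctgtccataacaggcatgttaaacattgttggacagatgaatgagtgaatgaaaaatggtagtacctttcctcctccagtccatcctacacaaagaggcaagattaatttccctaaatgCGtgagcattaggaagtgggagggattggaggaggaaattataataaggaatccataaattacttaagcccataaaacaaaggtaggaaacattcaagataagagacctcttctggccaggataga
The stretch of GSTP1 holds 20 CG dinucleotides in 180 bases, and that of GSTA1 holds 1 in 206. The stretches of GSTM1 and GSTM5 hold 19 each, and that of GSTM3 holds 1. The row of GSTM3 starts at the RefSeq start site, whereas the row of GSTP1 begins 217 bases, that of GSTA1 151 bases, that of GSTM1 21 bases and that of GSTM5 500 bases before the RefSeq start site.

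In every library, 44 of the 58 protein-coding genes reached 1 TPM (75.9% of them), against 59.5% of the 18739 protein-coding rows. At least 10 TPM was reached in every library by 39 of the 58, against 40.4% of all protein-coding rows, and at least 100 TPM by 18 of the 58, against 7.18%. Conversely, 7 of the 58 were listed at 0 in all 3 libraries, against 20.0% of all protein-coding rows. The 62 rows summed to 1.08% of all TPM in replicate 1 and to 1.07% in both others, on average 10704 ± 51.2 TPM (SD, n = 3). PRDX1 alone made up 18.4% of this sum, PRDX1 and GSTP1 together 35.6%, and the 10 highest genes 77.2%. By role, the 6 peroxiredoxins held 37.9% of the sum, the 20 rows of soluble glutathione transferases 21.8%, thioredoxins with their reductases and TXNIP 16.5%, and the glutathione peroxidases 9.81%.

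**Figure D1:**
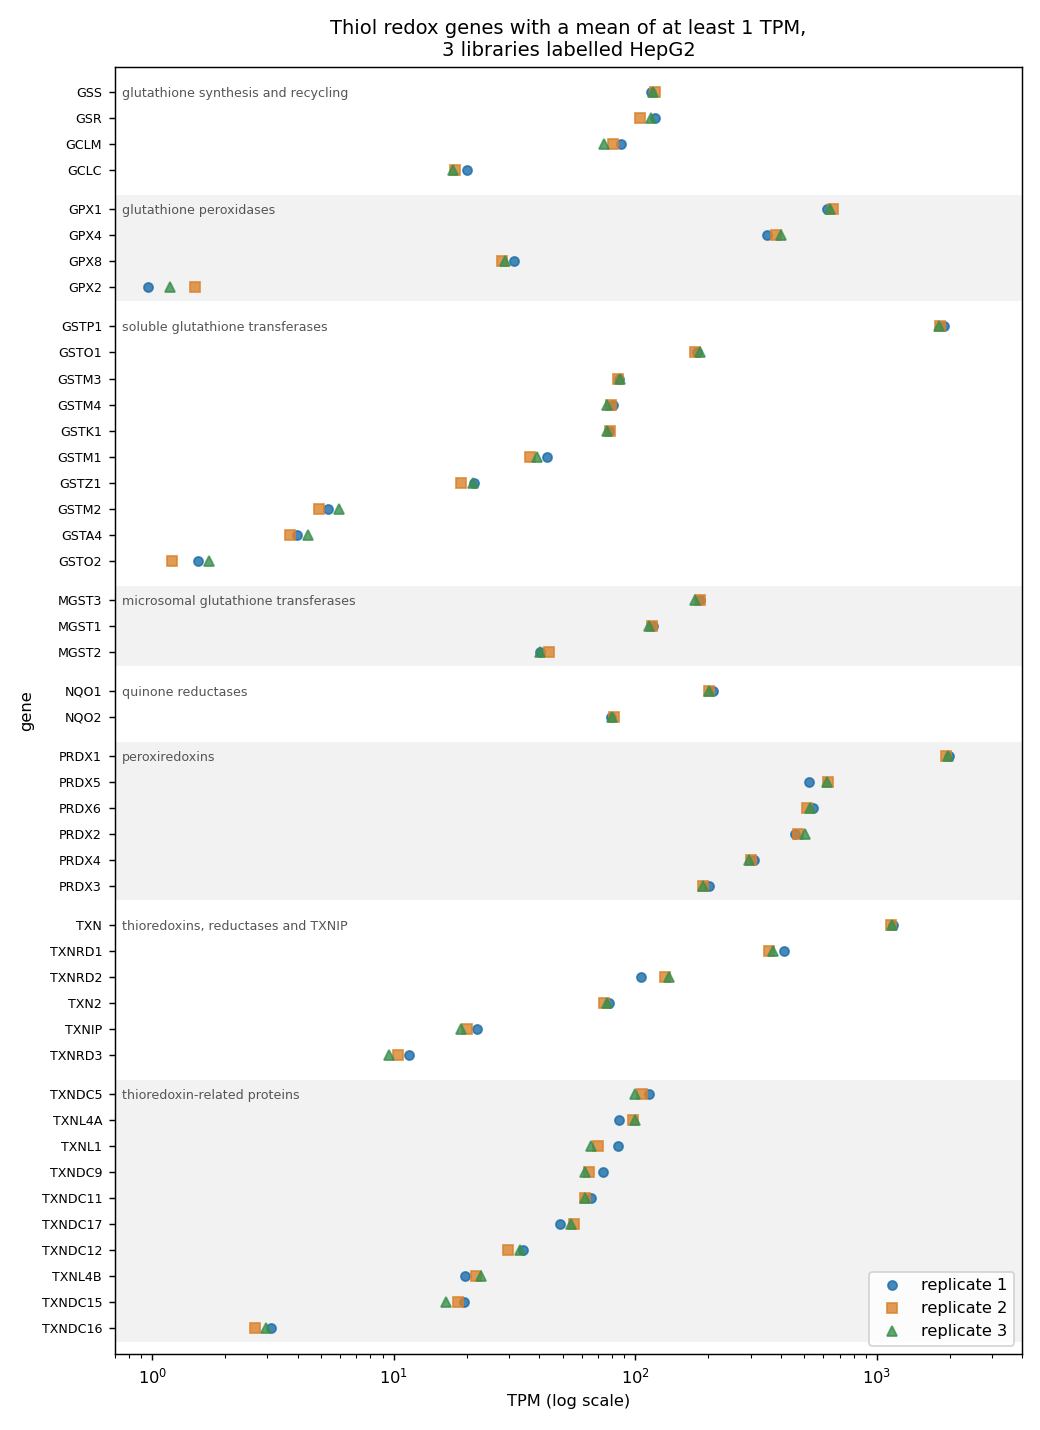
TPM on a log axis of the 45 genes whose mean reached 1 TPM, grouped by role, with 1 point for each of the 3 libraries labelled HepG2. PRDX1 and GSTP1 lie between 1803 and 1995 TPM in every library, and GPX2 lies lowest, between 0.958 and 1.5 TPM.

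Glutathione synthesis was led by GSS, which joins glycine to the dipeptide, with 116, 121 and 118 TPM in replicates 1, 2 and 3. GSR, which regenerates reduced glutathione, had 121, 105 and 116 TPM. The ligase subunits stood apart, since the modifier GCLM had 87.1, 80.8 and 74.3 TPM and the catalytic subunit GCLC had 20.04, 18.0 and 17.7 TPM. GCLM was higher than GCLC in 3 of 3 libraries, on average 4.35-fold, and the ranges of the subunits did not overlap. On the log2(TPM + 1) scale the difference of GCLC from GCLM was -2.06 ± 0.05 (SD, n = 3; two-sided exact sign-flip permutation test, p = 0.25). This and 7 other pairs of genes were compared within libraries. All 8 gave p = 0.25 in this exact permutation test, and 0.25 after Benjamini-Hochberg adjustment, a floor set by having 3 libraries.

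Among glutathione peroxidases, GPX1, a selenoprotein that reduces hydrogen peroxide, had 623, 661 and 638 TPM. GPX4, a selenoprotein that reduces lipid peroxides within membranes, had 352, 381 and 402 TPM. The lowest GPX1 value lay above the highest GPX4 value, and the log2 difference was 0.76 ± 0.08 (SD, n = 3; exact permutation p = 0.25), or 1.59-fold to 1.77-fold per library. GPX8, a peroxidase of the endoplasmic reticulum without selenium, had 31.4, 27.9 and 28.9 TPM. The others of the family were near or at 0. GPX2, known from the gut epithelium, had 0.958, 1.5 and 1.19 TPM and so passed 1 TPM in only 2 of the 3 libraries. GPX3, the secreted plasma enzyme, had 0.589, 0.501 and 0.608 TPM. GPX5, GPX6 and GPX7 were listed at 0 in every library. An exact 0 in these tables need not mean absent RNA, since the depth is unknown.

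The soluble glutathione transferases were dominated by GSTP1, the pi-class enzyme, with 1899, 1830.4 and 1803 TPM. By its mean of 1844 ± 49.3 TPM (SD, n = 3) GSTP1 ranked 53rd among the genes of at least 1 TPM on the main chromosomes. Omega-class GSTO1, which also reduces dehydroascorbate, came next with 180, 177 and 186 TPM. GSTK1, a kappa-class enzyme of mitochondria and peroxisomes, had 77.4, 78.4 and 76.6 TPM. GSTZ1, the zeta-class enzyme that isomerises maleylacetoacetate in tyrosine breakdown, had 21.4, 18.9 and 21.3 TPM.

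Transferase genes of the mu, alpha, omega and theta classes lie in clusters. Neighbours differed widely in the mu-class and omega-class clusters, while the alpha-class and theta-class clusters were low throughout. The 5 mu-class genes span chr1:109656076-109741038 (GRCh38). GSTM4 had 80.5, 79.2 and 76.01 TPM, and GSTM3, at the other end and on the other strand, had 85.8, 84.4 and 86.7 TPM. Between them, GSTM1 had 43.1, 36.7 and 39.3 TPM, and GSTM2 had 5.34, 4.89 and 5.94 TPM. GSTM5 was at 0, 0.0733 and 0 TPM. The ranges of GSTM4 and GSTM3 lay above that of GSTM1, that of GSTM1 above that of GSTM2, and that of GSTM2 above that of GSTM5. GSTM1 is a gene that many people lack, and its values above 0 in all 3 libraries concern these libraries only. Mu-class genes are close paralogs, and how reads shared between them were assigned is not known.

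The alpha-class cluster at chr6:52739463-52995332 was low throughout. GSTA1 and GSTA2, the main alpha-class enzymes of hepatocytes, were listed at 0 in all 3 libraries, as were GSTA5 and the pseudogene GSTA7P. GSTA3 had 0.537, 0.115 and 0.417 TPM. GSTA4, which conjugates the lipid peroxidation product 4-hydroxynonenal, was the highest of the 6 genes with 3.97, 3.72 and 4.40 TPM. At the omega-class locus, 161 bases separate GSTO2 from the end of GSTO1 on the same strand, and GSTO2 had 1.54, 1.21 and 1.72 TPM. In the theta-class cluster on chromosome 22, GSTT2B had 0.438, 0.371 and 0.284 TPM, GSTT2 had 0.112, 0.106 and 0.0857 TPM, and GSTT4 was at 0. GSTT2 and GSTT2B are near-identical copies, so their separate values are uncertain. GSTT1 has its row only on an alternate sequence of chromosome 22, for which it was left out, and was listed at 0 in all 3 libraries. The mu-class pseudogene GSTM2P1 on chromosome 6 was also at 0.

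**Figure D2:**
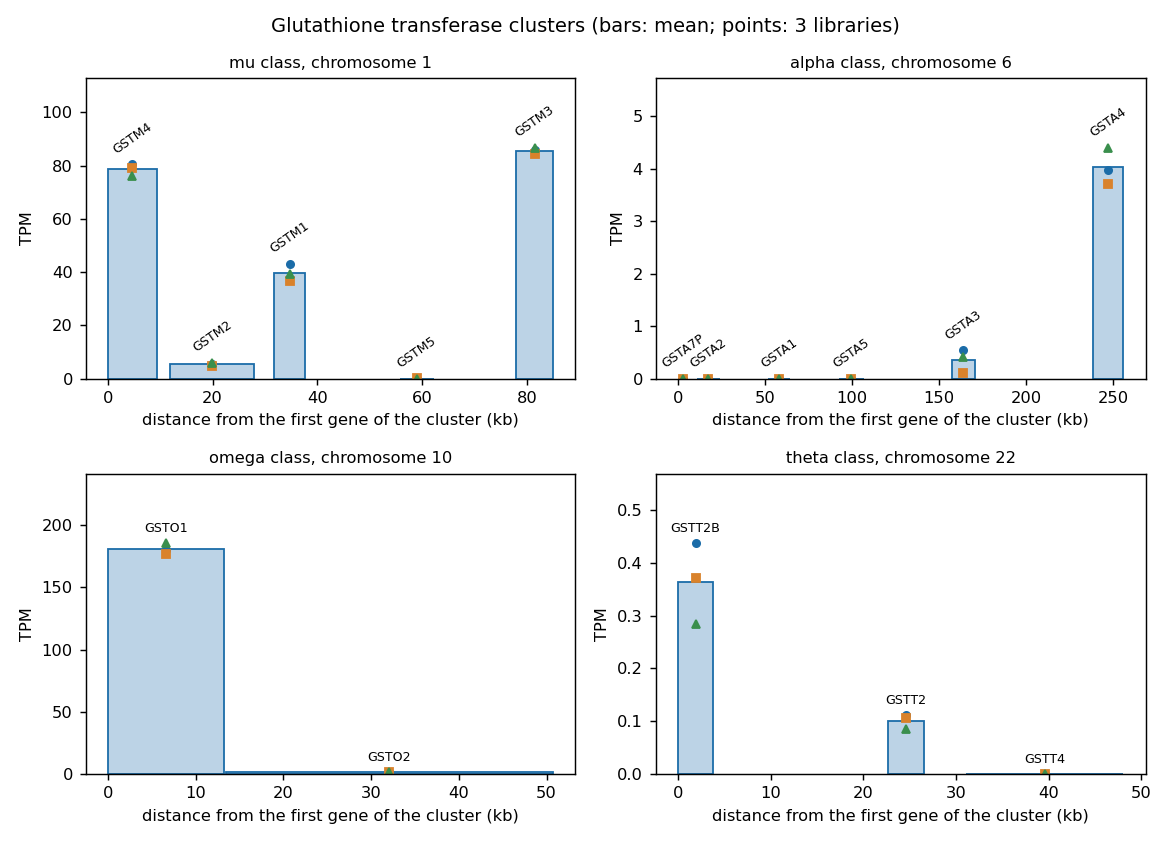
TPM (linear axes from 0, a separate scale in each panel) against the distance in kb from the first gene of each of 4 transferase clusters, with bars as wide as the gene at the mean of 3 libraries and points for the libraries. GSTM4, GSTM1 and GSTM3 reach between 36.7 and 86.7 TPM in the mu-class panel, whereas the alpha-class panel ends at GSTA4 with at most 4.40 TPM.

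The levels were set beside the sequence of the 300-base windows around the RefSeq start sites, from 250 bases before to 50 bases after. Of the 51 windows, 25 had the start site within 50 bases of the row start, 12 of them exactly at it. The other windows need not hold the promoter of the measured row. In the 33 genes with a window and at least 10 TPM in every library, the median number of CG dinucleotides was 27, with a range of 1 to 48. In the 12 genes with a window that were below 1 TPM in every library it was 4, with a range of 0 to 30, and it was 21 over 22198 windows of protein-coding genes. These 22198 include every window of a gene with several start sites, whereas each thiol redox gene has 1. At least 10 CG dinucleotides were found in 28 of the 33 and in 3 of the 12, against 70.1% of all windows. All windows were counted whatever the level of their gene. Whether genes in general differ in the same way by level was not tested. The pairing was loose at both ends. GSTM3, with 1 CG dinucleotide, and MGST1, with 4, had means of 85.7 and 116 TPM, whereas GPX7, with 30, was listed at 0. The mean coverage of GSTM3 was 511 and that of MGST1 only 36.8, so MGST1 stood high by TPM alone. Of the pairs aligned, GSTM1 against GSTM5 and GSTA1 against GSTA2, the first differed in level. Their 250 bases before the start site matched at 216 of 239 aligned positions (90.4%), with 19 CG dinucleotides each, and their means were 39.7 and 0.0244 TPM. GSTA1 and GSTA2 matched at 243 of 250 positions (97.2%), and both were at 0. Windows of paralogs share their origin, the genes are not independent samples, and CG methylation was not measured.

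**Figure D3:**
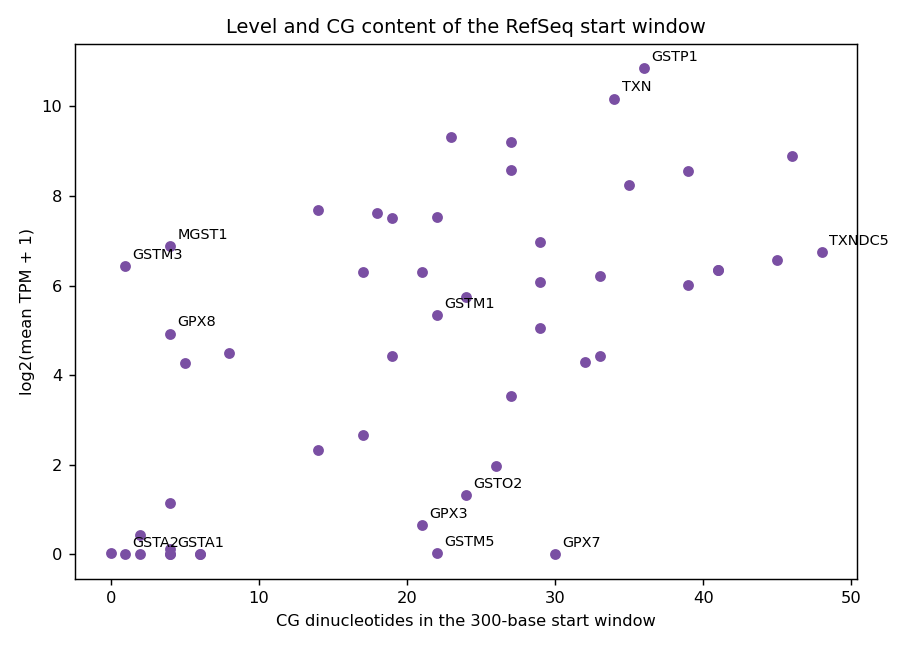
Level of each of the 51 genes with a RefSeq start window, as log2(mean TPM + 1), against the number of CG dinucleotides in the 300-base window. GSTA1 and GSTA2 lie at the lower left, GSTP1 and TXN at the upper right, and GSTM3 and MGST1 are high with few CG dinucleotides while GPX7 is at 0 with 30.

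The core of the antioxidant response element was searched in the same windows as TGACNNNGC on both strands. It was found in 10 of the 51 windows (19.6%), in 7 of the 33 genes of at least 10 TPM (21.2%), in 1 of the 12 genes below 1 TPM (8.33%, GSTM5) and in 13.8% of all protein-coding windows. The share over all protein-coding windows was again taken at any level. A match is a string of letters and not a site that a factor was measured on. Windows of 29 bases around 4 of the matches are shown, for highly expressed genes of which GCLM and TXNRD1 are textbook NRF2 targets, with the match in capitals on the strand of the gene.
GSTP1, 66 bases before the start site, chr11:67583736-67583764 (plus strand): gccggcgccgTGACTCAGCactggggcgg
TXNRD1, 99 bases before the start site, chr12:104215670-104215698 (plus strand): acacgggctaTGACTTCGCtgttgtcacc
GCLM, 34 bases before the start site, chr1:93909446-93909474 (minus strand): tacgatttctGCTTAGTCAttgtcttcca
GSTO1, 161 bases before the start site, chr10:104254721-104254749 (plus strand): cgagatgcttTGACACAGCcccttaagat
The match in GSTP1 overlapped the AP-1 motif TGACTCA, and none of the other matches in the 51 windows did. In GCLM the match reads GCNNNGTCA, the reverse complement of the core. TXNRD1 and GSTO1 held a second match each. The row of TXNRD1 starts at the RefSeq start site. The rows of GSTP1, GCLM and GSTO1 begin 217, 940 and 698 bases before it, so their matches shown lie inside the measured rows. The window of NQO1, another textbook NRF2 target, held no match, and bases beyond the windows were not searched.

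The 3 microsomal glutathione transferases, which sit in membranes, were all expressed. MGST3 had 185, 186 and 177 TPM, MGST1 had 119, 117 and 114 TPM, and MGST2, which can form leukotriene C4, had 40.3, 43.8 and 40.3 TPM. MGST1 was therefore below GSTP1 in every library, and the log2 difference of GSTP1 from MGST1 was 3.97 ± 0.01 (SD, n = 3; exact permutation p = 0.25). By coverage, the mean read depth over the gene, the same difference was 8.19 ± 0.01 (SD, n = 3). Coverage was also divided by FPKM for each gene, and the ratio was expressed relative to the highest ratio in each library, which was 13.3, 12.8 and 11.5 in replicates 1, 2 and 3. For genes of at least 10 TPM its median was 0.703 over 40 thiol redox genes and 0.792 over all 8419 such genes. It was 0.0579 in MGST3, 0.0529 in MGST1 and 0.0231 in MGST2, and PRDX4 with 0.186 and TXNL1 with 0.140 were the only other genes of the 40 below 0.2. Of all genes of at least 10 TPM, 10.02% were below 0.2. The part of this gap in the TPM of the microsomal transferases was not tested.

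**Figure D4:**
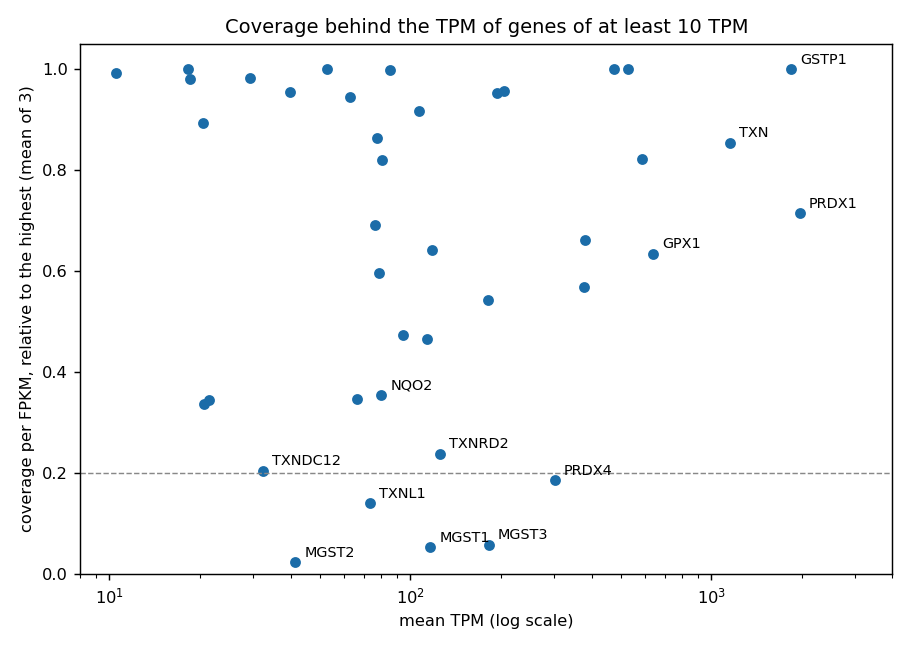
Coverage per FPKM, relative to the highest ratio in each library and averaged over 3 libraries, against mean TPM on a log axis for the 40 genes of at least 10 TPM. The dashed line marks 0.2, and the 3 microsomal transferases, TXNL1 and PRDX4 lie below it while GSTP1 lies at 1.

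NQO1, which reduces quinones by transfer of electron pairs from NADH or NADPH, had 210, 202 and 202 TPM. NQO2, its paralog that uses dihydronicotinamide riboside, had 79.03, 81.4 and 79.8 TPM. NQO1 was higher in 3 of 3 libraries, with a log2 difference of 1.34 ± 0.05 (SD, n = 3; exact permutation p = 0.25) by TPM and 2.78 ± 0.03 by coverage.

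Each of the 6 peroxiredoxins exceeded 100 TPM in all 3 libraries. PRDX1, the main cytosolic enzyme of the typical 2-Cys group, had 1995, 1932 and 1976 TPM and was the highest of the 62 rows, ranking 45th among the genes of at least 1 TPM. Its lowest value lay above the highest of GSTP1. PRDX5, found in mitochondria, peroxisomes and cytosol, had 521, 629 and 620.1 TPM, lowest in replicate 1. PRDX6, a 1-Cys enzyme that also repairs membrane phospholipids, had 546, 515 and 529 TPM.

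PRDX2, the other cytosolic 2-Cys enzyme, had 456, 469.9 and 503 TPM. PRDX4, which is secreted or kept in the endoplasmic reticulum, had 311, 301 and 294 TPM, and mitochondrial PRDX3 had 202, 191 and 190.4 TPM. PRDX1 exceeded PRDX2 by 2.05 ± 0.08 on the log2 scale (SD, n = 3; exact permutation p = 0.25), or 3.93-fold to 4.38-fold per library. PRDX3 was below PRDX5 with a log2 difference of -1.59 ± 0.20 (SD, n = 3; exact permutation p = 0.25), which was -1.36 in replicate 1 and -1.72 and -1.70 in replicates 2 and 3. PRDX1 shares 2348 bp with MMACHC on the opposite strand, which had 10.4 ± 0.796 TPM (SD, n = 3).

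TXN, the cytosolic thioredoxin, had 1159.6, 1146 and 1152 TPM, and its spread was the smallest of the 40 genes of at least 10 TPM. TXN2, the mitochondrial thioredoxin, had 77.4, 74.3 and 76.6 TPM. TXN was 15.0-fold to 15.4-fold higher per library, and the log2 difference was 3.90 ± 0.02 (SD, n = 3; exact permutation p = 0.25). TXNIP, which binds and inhibits reduced thioredoxin and limits glucose uptake, had 22.2, 20.02 and 19.01 TPM.

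The reductases are selenoproteins. TXNRD1, the cytosolic one, had 413, 359 and 371 TPM, and TXNRD2, the mitochondrial one, had 106, 133 and 138 TPM. Replicate 1 had the highest TXNRD1 and the lowest TXNRD2, so that the log2 difference was 1.96 in replicate 1 and 1.42 in each of replicates 2 and 3, a mean of 1.60 ± 0.31 (SD, n = 3; exact permutation p = 0.25). By coverage it was 3.08 ± 0.13. TXNRD3, known from testis, had 11.6, 10.5 and 9.57 TPM.

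**Figure D5:**
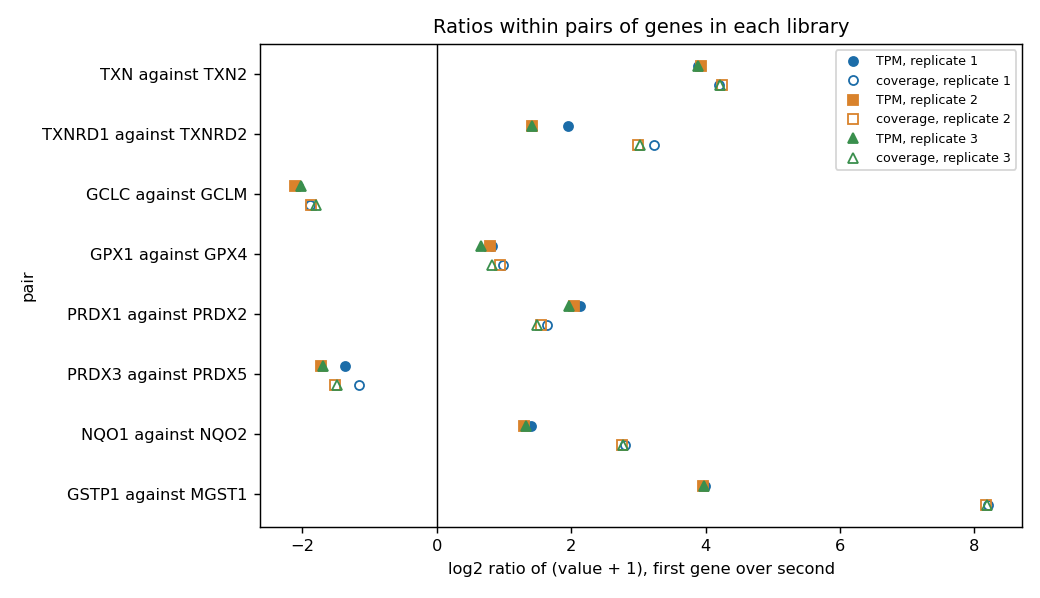
Log2 ratio of (value + 1) of the first gene over the second for 8 pairs, by TPM (filled) and by coverage (open), with 1 point per library. Every pair keeps 1 direction in all libraries and both measures, and the ratio of GSTP1 to MGST1 moves from 3.97 by TPM to 8.19 by coverage.

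The thioredoxin-related proteins share the thioredoxin fold but serve in many places. TXNDC5, a disulfide isomerase of the endoplasmic reticulum, led with 114, 106 and 99.8 TPM, but its whole row lies within that of the readthrough gene BLOC1S5-TXNDC5, which had 14.5 ± 3.42 TPM (SD, n = 3). TXNL4A, a component of the U5 snRNP of the spliceosome, had 85.9, 97.7 and 99.8 TPM. TXNL1, which associates with the proteasome, had 84.7, 69.96 and 65.4 TPM. Thus TXNL4A was lowest and TXNL1 highest in replicate 1.

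TXNDC9, a partner of the chaperonin that folds actin and tubulin, had 73.6, 63.98 and 61.8 TPM. TXNDC11, a protein of the endoplasmic reticulum, had 65.7, 62.1 and 61.7 TPM, and TXNDC17, a cytosolic disulfide reductase, had 48.7, 55.5 and 53.9 TPM. TXNDC12, of the endoplasmic reticulum, had 34.1, 29.8 and 33.3 TPM. The lower genes were TXNL4B, a paralog of TXNL4A, with 19.8, 21.8 and 22.9 TPM, and TXNDC15 with 19.6, 18.5 and 16.4 TPM. TXNDC16 was below 10 TPM with 3.09, 2.68 and 2.97 TPM. TXNDC2 and TXNDC8, known from sperm, and TXNRD3NB, a row beside TXNRD3, each had at least 1 library at 0 and stayed below 0.3 TPM.

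Neighbours in the order of TPM were compared by their ranges. The order by coverage was not the same. PRDX1, above GSTP1 by TPM, was below it by mean coverage (8391 and 11017). PRDX4, above NQO1 by TPM (means of 302 and 204), was below it by mean coverage (336 and 1168.5). Which measure gives the better order was not tested. Of the 9 steps between neighbours among the 10 highest genes, the ranges over 3 libraries did not overlap in 6, namely from PRDX1 to GSTP1, TXN and GPX1, from PRDX6 to PRDX2 and TXNRD1, and from GPX4 to PRDX4. GPX1 and PRDX5, PRDX5 and PRDX6, and TXNRD1 and GPX4 overlapped. Over all 44 steps down to a mean of 1 TPM, 25 pairs of neighbours overlapped and 19 did not. The genes were first sorted by these same means, and the same count over neighbours among all genes was not made. The 10 genes TXNL4A, GSTM3, GCLM, NQO2, GSTM4, GSTK1, TXN2, TXNL1, TXNDC9 and TXNDC11 formed 1 run in which each overlapped the next, with means from 94.5 down to 63.2 TPM.

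The spread of each gene between libraries was then set beside that of all genes. In the 40 genes of at least 10 TPM, the median coefficient of variation was 5.61%, against 4.88% over all 8419 such genes. No gene of the 40 had a range of log2(TPM + 1) above 0.5, against 1.41% of all genes. The largest range was 0.38 in TXNRD2, followed by 0.37 in TXNL1 and 0.27 in PRDX5, and the smallest was 0.02 in TXN. Replicate 1 gave the highest value in 25 of the 40 genes (62.5%), and it did so in 62.5% of all genes.

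Other genes of the same pathways were read from 6 lists with 51 genes. At least 1 TPM in every library was reached by 47 of the 51 and at least 10 TPM by 39, against the 59.5% and 40.4% of all protein-coding rows given above. All 8 regulators were expressed. MAFK, a small MAF partner of NRF2, was highest with 183 ± 10.1 TPM, followed by the related factor NFE2L1 with 76.5 ± 2.55 TPM, NFE2L2 itself with 62.4 ± 5.69 TPM and KEAP1 with 36.5 ± 0.635 TPM (SD, n = 3).

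For cysteine supply and glutathione breakdown, 9 of 10 genes reached 1 TPM in all 3 libraries. SLC3A2, the heavy chain of the cystine carrier, had 607 ± 10.3 TPM, whereas its light chain SLC7A11 had 16.2 ± 1.25 TPM (SD, n = 3; named after its value was seen). GGCT, GGT1 and CHAC2, which act in glutathione breakdown, had 124 ± 1.14, 50.9 ± 1.31 and 26.9 ± 1.69 TPM (SD, n = 3). GGT7 was below 0.1 TPM.

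Of the glutaredoxins, sulfiredoxin, catalase and superoxide dismutases, 8 of 9 reached 10 TPM. SOD1, the cytosolic dismutase, led with 419 ± 15.3 TPM, followed by mitochondrial SOD2 with 129 ± 6.82 TPM, GLRX3 with 116 ± 5.13 TPM and GLRX5 with 109.8 ± 8.90 TPM (SD, n = 3). Secreted SOD3 had 0.700 ± 0.145 TPM. All 6 genes of NADPH supply reached 10 TPM, led by PGD with 163 ± 5.03 TPM, NNT with 91.7 ± 5.75 TPM and IDH1 with 89.7 ± 3.60 TPM (SD, n = 3).

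Of the genes for selenocysteine insertion, on which GPX1, GPX4 and the thioredoxin reductases depend, 8 of 8 reached 1 TPM and 6 reached 10 TPM. SEPHS2, SEPHS1, SECISBP2 and EEFSEC were highest with 64.2 ± 4.43, 31.9 ± 0.631, 24.03 ± 1.53 and 23.01 ± 1.21 TPM (SD, n = 3). Of 10 other NRF2 targets, 8 had at least 10 TPM, with the ferritin chains FTH1 at 6821 ± 343 and FTL at 3191 ± 132 TPM, and TKT and TALDO1 of the pentose phosphate pathway at 534 ± 6.59 and 239 ± 2.75 TPM (SD, n = 3). The aldo-keto reductases AKR1B10 and AKR1C1 were low, with 0.546 ± 0.0918 and 0.965 ± 0.133 TPM (SD, n = 3).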

How the data were processed

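Polyadenylated RNA of 3 libraries labelled HepG2 was sequenced as paired-end reads. The authors filtered the reads with FastQC 0.11.8 and Trim Galore 0.6.2 and mapped them to GRCh38 with STAR 2.6.1a, and the submitters' processing notes also name StringTie, without a version or a role. The annotation and strand setting are not given in the sources used here. The deposited coverage is a signal of mean read depth per gene, not scaled for library size. The deposited FPKM values are scaled for length and library size, and the deposited TPM values are shares of all transcripts after correction for length. No counts were used, depth is unknown, and the SD over 3 libraries is the only measure of precision.

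The 3 tables were merged on symbol, reference, strand and position, which left out up to 4 rows of a table. Genes were chosen by symbol, and the names printed are all genes whose mean reached 10 TPM, protein-coding genes at 0, both genes of each pair and, of each pathway list, the 4 highest and those below 1 TPM, except 1 gene that is not reported here. Other rows below 10 TPM and overlapping genes were named after their values were seen. The name rule itself uses no measured value, but the gene families and lists were chosen with earlier results of these data known. Within-library log2 ratios used a pseudocount of 1 and the exact permutation test that flips signs, two-sided and adjusted over 8 pairs. Protein-coding status came from RefSeq symbols, with 61 of the 62 genes matched. For 13 genes with several RefSeq start windows, the one nearest the row start was used, while the windows of all protein-coding genes were all kept. The range calculation was tested on simulated data. Alternatives were leaving out each replicate, other TPM limits and pseudocounts, FPKM or coverage, TPM rescaled without mitochondrially encoded genes, and median-of-ratios scaling. Tables were read with pandas 2.3.3 and numpy 2.4.6 under Python 3.11.15, promoters were aligned with Biopython 1.88, tests used scipy 1.17.1 and plots matplotlib 3.10.9.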

Additional observations from a re-analysis of the deposited data

How the results depend on the processing

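Of 68 recomputed values, 67 met the rule for their kind: a pair ratio kept its direction, a count stayed within 1.5 times of the count reported, and the summed level moved by less than 1 SD over libraries (51.2 TPM). Most recomputed pair ratios had to keep their direction, for the reasons given below. The value that did not meet its rule was the summed level of the 62 rows, which rose from 10704 to 13394 TPM when mitochondrially encoded genes were left out before scaling. That scaling raises every other gene, by a median of 0.32 on the log2 scale, through its construction. With each replicate left out, the sum ranged from 10679 to 10730.3 TPM, the rows of at least 1 TPM numbered 44 or 45, and none of the genes of at least 10 TPM had a range above 0.5. Leaving out a library cannot widen a range. The rows counted as expressed numbered 48 at a limit of 0.1 TPM, 39 at 10 TPM and 49 above 0. All 8 pairs kept their direction by coverage and FPKM, with a pseudocount of 0.1 and without any 1 replicate, but only coverage could have reversed a pair. Each pair had the same sign in every library, so leaving out a replicate could not reverse it. FPKM differs from TPM by 1 factor per library, and a pseudocount cannot change a sign. Coverage moved the log2 ratio by over 1.5 times in TXNRD1 against TXNRD2 (1.60 to 3.08), NQO1 against NQO2 (1.34 to 2.78) and GSTP1 against MGST1 (3.97 to 8.19). The cause was not tested. Of the pairs, TXNRD1 against TXNRD2 moved most on leaving out a library, to 1.42 without replicate 1. No paired analysis was possible because only 1 group of libraries exists here. Without counts, a gene at 0 has no stated limit.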

Other observations

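Of the 62 rows, 20 share bases with another row, 18 of them with a row on the opposite strand, and the strand setting is not known. The same share over all rows was not computed, so these counts do not show whether the 62 rows are unusual. MGST2 overlaps MAML3 over 37856 bp and TXNL4B overlaps DHX38 over 652 bp, both on opposite strands, and MAML3 and DHX38 had 5.35 ± 0.273 and 53.3 ± 0.695 TPM (SD, n = 3). TXNDC12 shares 1696 bp with KTI12 on the same strand, which had 21.8 ± 3.23 TPM (SD, n = 3).

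The name pattern matched 70 rows, of which 8 were outside the rule. Of these, 7 lie on alternate sequences of chromosomes 6 and 22 and were listed at 0 in all 3 libraries, and TXNDC12-AS1 had 0.363 TPM in replicate 1 and 0 in the others.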
